A study of Mus musculus with 10 samples.

Results

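In these libraries 1105 of 50039 open chromatin regions were closed in bone marrow (BM) and lung group 2 innate lymphoid cells (ILC2s) relative to ILC2s of the large intestine (LI), pancreas and small intestine (SI). They were chosen by the values themselves. Each library's read counts were divided by a median-of-ratios size factor and taken as log2(normalised count + 1), and a region was a member when the lowest of the 6 LI, pancreas and SI libraries stood at least 0.2 above the highest of the 4 BM and lung libraries. That gap is called the margin here. The 1105 members were 2.21% of all regions. The direction of the difference between these groups of tissues is therefore a condition of membership, and no test of it is given.

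The study profiled chromatin accessibility by ATAC-seq, in which a transposase cuts and tags accessible DNA, in ILC2s sorted from 5 tissues of untreated wild-type male C57BL/6 mice aged 6 weeks, with 2 libraries for each tissue. Each library came from cells pooled from several mice, so the spread between replicates is a spread between pools. Every sort gate took lineage-negative cells. ST2 and CD25 marked the ILC2s of each tissue except SI, where KLRG1 and Thy1 took their place. The paper also lists CD45 and CD127 in the gates for lung, LI, pancreas and SI, but not in the gate for BM. BM cells were flushed from femur and tibia with no enzyme, BM was sorted on another instrument, and the digestion differed between the other tissues, so that tissue, gate and preparation cannot be told apart.

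ILC2s are tissue-resident lymphocytes that lack antigen receptors, depend on the transcription factors GATA3 and RORα, and release IL-5, IL-13 and amphiregulin when IL-33, IL-25 or neuropeptides reach them. Their identity is held in enhancers, which are mostly distal from start sites and are opened by sequence-specific factors. Among such factors are AP-1 dimers of Fos, Jun and Batf proteins, which respond to cell stimulation, and the Nr4a orphan nuclear receptors, immediate early proteins that bind as monomers to an extended nuclear receptor core word, the NBRE.

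The sequences of the members held the NBRE and AP-1 words at higher shares than all regions, as detailed further on. Which factors bind these words in ILC2s was not measured. The 5 sequences printed first are the central 100 bases of members with the largest margins that held the NBRE word AAAGGTCA within these bases, and they show where the word lay. They are named by the gene with the nearest protein-coding start site, in mm10 and on the plus strand, with the NBRE (AAAGGTCA, or TGACCTTT where it read on the minus strand) and any AP-1 word in capitals.

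Nckap5, chr1:126764451-126764550: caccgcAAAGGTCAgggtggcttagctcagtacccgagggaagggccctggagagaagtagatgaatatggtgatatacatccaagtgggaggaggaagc
Dr1, chr5:108246445-108246544: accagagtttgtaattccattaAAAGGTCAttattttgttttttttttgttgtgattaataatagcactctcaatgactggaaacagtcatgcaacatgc
Ear2, chr14:44091694-44091793: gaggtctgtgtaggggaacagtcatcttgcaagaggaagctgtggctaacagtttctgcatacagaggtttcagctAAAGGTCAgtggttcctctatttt
Tnfsf18, chr1:161632080-161632179: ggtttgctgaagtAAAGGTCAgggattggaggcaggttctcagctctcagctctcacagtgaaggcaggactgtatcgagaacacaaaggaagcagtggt
1110002E22Rik, chr3:138034189-138034288: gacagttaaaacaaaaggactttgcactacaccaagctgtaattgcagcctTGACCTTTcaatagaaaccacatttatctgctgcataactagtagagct

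The next 4 are the corresponding members with an AP-1 word (TGANTCA) in the central 100 bases and no NBRE in the central 500, with the AP-1 word in capitals.

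Unc5b, chr10:60934466-60934565: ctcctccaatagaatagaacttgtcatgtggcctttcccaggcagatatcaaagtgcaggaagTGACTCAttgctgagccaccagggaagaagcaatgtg
Ncoa5, chr2:165010311-165010410: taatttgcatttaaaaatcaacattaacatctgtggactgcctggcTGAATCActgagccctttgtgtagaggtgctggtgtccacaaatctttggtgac
Ntn5, chr7:45677106-45677205: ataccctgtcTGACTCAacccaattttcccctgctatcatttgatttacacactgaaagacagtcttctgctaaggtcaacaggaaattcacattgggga
Esyt3, chr9:99396558-99396657: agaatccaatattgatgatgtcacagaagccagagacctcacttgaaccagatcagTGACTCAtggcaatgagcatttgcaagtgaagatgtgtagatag

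Of the 9, the Nckap5 region lay in an intron of Nckap5, the Unc5b region in an intron of Pldi, the Ncoa5 region in an intron of Ncoa5, the Esyt3 region in an intron of Mras, and the other 5 were intergenic. Normalised counts at the Ear2 region were 10.7 and 9.3 in BM, 13.3 and 8.2 in lung, 67.8 and 50.6 in LI, 32.1 and 69.3 in pancreas, and 55.7 and 44.1 in SI. At the region near Ntn5 they were 19.4 and 27.9 in BM, 14.9 and 16.4 in lung, 105 and 109 in LI, 151 and 189 in pancreas, and 72.0 and 129 in SI. In both, the 4 low libraries lay together and pancreas was among the open tissues.

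Libraries held between 10282987 reads in regions (pancreas replicate 2) and 32797872 (lung replicate 2). The share of these reads that fell in promoter regions was 35.7% to 38.3% in BM, 36.7% and 37.0% in lung, 24.8% and 29.7% in LI, 24.9% and 29.8% in pancreas, and 33.2% and 36.5% in SI, so it moved with the rule's groups for LI and pancreas. The median level of non-promoter regions outside the members was 6.74 to 6.84 on the log2 scale in BM and lung and 6.86 to 6.96 in the other tissues. The part of this offset in the members was not tested. With size factors from non-promoter regions alone 877 of the 1105 members met the rule, and with total counts 763 did. The ILC2 marker genes, Gata3 and Rora among them, all had regions, with summed normalised counts of 65400 to 77800 in BM and lung and 47000 to 83500 in the other tissues. Regions of myeloid markers summed to 1180 to 1630 in BM and lung and 1190 to 1800 elsewhere. Of the marker lists, members were found near Gata3 and Rora for ILC2s (3 of 217 regions), Kit for progenitors (2 of 32), and Cpa1 and Epcam for epithelial and acinar cells (2 of 28), whose summed counts were 5760 to 8030 in BM and lung and 6800 to 9090 elsewhere, and none among the 6 regions of T cell markers, 19 of NK and ILC1, 7 of ILC3, 3 of mast cell and basophil and 10 of myeloid markers, numbers too small to show a low share. The progenitor markers summed to 8360 to 11200 in BM and lung and 9070 to 14100 elsewhere.

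The members' median level was 5.42 and 5.39 in the BM libraries and 5.68 and 5.53 in the lung libraries. It was 7.13 and 7.08 in LI, 6.64 and 6.92 in pancreas, and 7.07 and 7.05 in SI. Over all regions the medians stayed between 7.02 and 7.26 in every library, so the members sat near the median of all regions in the open tissues and well under it in BM and lung. BM and lung were not empty at these sites. The median member had 43 and 44 raw reads in BM and 64 and 83 in lung, against 57 to 194 in the other libraries, and the lowest raw count of any member was 1, in BM replicate 1.

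**Figure D1:**
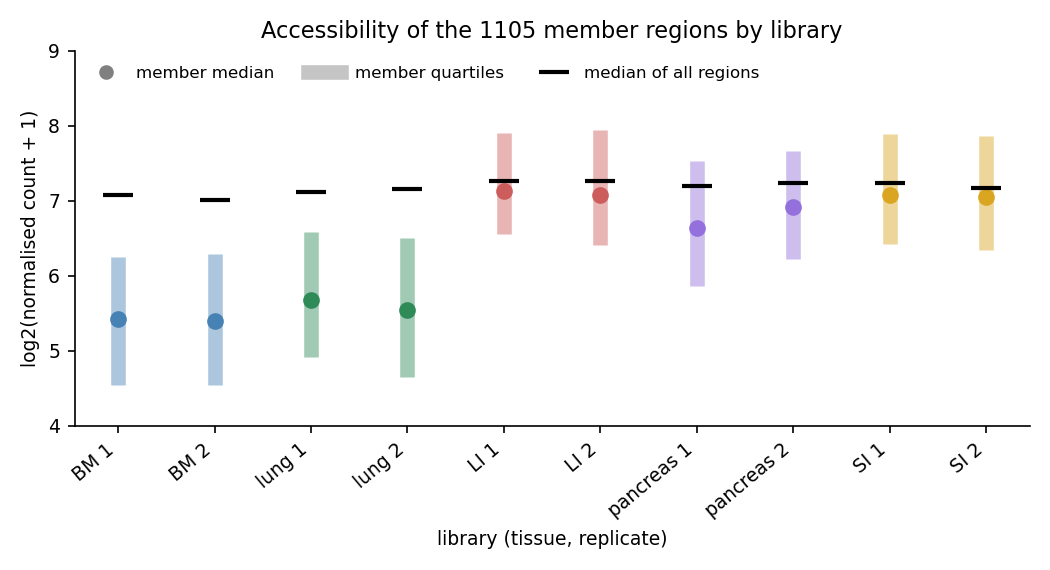
Level of the 1105 members in each library as log2(normalised count + 1), with the median (dot) and the quartiles (bar), and the median of all 50039 regions (black dash). The member medians lie between 5.39 and 5.68 in BM and lung and between 6.64 and 7.13 in the tissues where the rule required higher values.

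The margin ran from 0.20 to 1.98, with a median of 0.41. It reached 0.5 in 424 members, 1 in 73 and 1.5 in 8. The difference between the mean of the 3 open tissues and the mean of BM and lung ran from 0.49 to 3.83 on the log2 scale, with a median of 1.44, or 2.71-fold. Just inside the rule were a region in an intron of Hhip, with a margin of 0.2005, and an intergenic one near Capn13, with 0.2008. Just outside were regions near Lpin1 (0.19998) and Tle3 (0.1997).

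To describe how far such a choice held in the other replicate, the rule was applied to the replicate 1 libraries alone and the chosen regions were read in the replicate 2 libraries. In replicate 1, 3262 regions met it, of which 1497, or 45.9%, also met it in replicate 2, against 8.47% of all regions. Their median margin was 0.42 where they were chosen and 0.14 in replicate 2, where the median over all regions was -0.60. Chosen in replicate 2, 4239 regions met the rule and 35.3% of them met it in replicate 1, against 6.52% of all regions, with a median margin of -0.02 in replicate 1. In both directions the share that passed in the held-out libraries was above that of all regions, and most regions chosen on 1 replicate did not pass in the other. The size factors came from all 10 libraries, and both replicates of a tissue shared its gate, preparation and offset of non-promoter levels. The part of these in the shares was not tested, so the counts are a description.

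The members with the largest margins were distal. None of the 20 largest was at a promoter, 11 lay within genes and 9 between genes, 8 held an NBRE, 8 an AP-1 word and 12 either. The difference between the tissue means was 3.85-fold to 14.2-fold among them.

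The largest margin, 1.98, was at chr4:10940752-10941295, an intergenic region 66.5 kb from the start of 2610301B20Rik that held an NBRE. Normalised counts there were 10.7 and 18.6 in BM, 54.1 and 33.9 in lung, 366 and 275 in LI, 261 and 334 in pancreas, and 216 and 246 in SI. The lowest of the open libraries was 216 and the highest of the closed ones 54.1. BM and lung were also apart from each other at this site in their values, with lung higher in both replicates.

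Next came chr1:126764223-126764778 in an intron of Nckap5, which held both words. It had 22.3 and 14.9 in BM, 40.8 and 29.5 in lung, 465 and 539 in LI, 179 and 134 in pancreas, and 253 and 476 in SI. LI was the highest tissue and pancreas the lowest of the open ones, and no library of the open tissues came near those of BM and lung.

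3 more of the 20, at genes of 2 kinases and a transcription factor, are given in full. Within Tec, 4.79 kb upstream of the start of its neighbour Txk, both of them Tec family tyrosine kinases, chr5:72757249-72757885 had 67.9 and 53.0 in BM, 91.7 and 90.7 in lung, 361 and 530 in LI, 363 and 378 in pancreas, and 294 and 421 in SI. Near Prkcq, which encodes protein kinase C θ, chr2:11142814-11143388 held an NBRE and had 21.3 and 7.4 in BM, 25.1 and 21.3 in lung, 125 and 170 in LI, 89.1 and 174 in pancreas, and 72.9 and 69.9 in SI. Within Foxp1, a forkhead transcription factor, chr6:99050500-99051038 held an NBRE and had 41.7 and 38.1 in BM, 79.2 and 82.0 in lung, 363 and 350 in LI, 235 and 296 in pancreas, and 396 and 431 in SI. At the Txk and Foxp1 regions lung lay between BM and the open tissues, and at the Prkcq region SI was the lowest of the open tissues.

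The region near H2az1, which encodes the histone variant H2A.Z, had the largest difference of tissue means of the 20, 14.2-fold. At chr3:137837964-137838510, which held both words, counts were 7.8 and 12.1 in BM, 90.2 and 74.9 in lung, 468 and 567 in LI, 393 and 473 in pancreas, and 260 and 453 in SI. The order was BM, lung, then the rest, with a gap between each.

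Tekt3, by contrast, named a member that was mostly an SI region. At chr11:63021360-63021860 counts were 9.7 and 6.5 in BM, 6.3 and 3.3 in lung, 33.9 and 41.2 in LI, 28.5 and 52.5 in pancreas, and 167 and 142 in SI. The other members among the 20 were near Lipm, Prickle1, Plcl2, Rac1 (in an intron of Daglb), Ppp1r16b, Dthd1, Unc5b, Dnajb6, Dr1, Gpr161, Rad51b and Ncoa5, and a second one in Nckap5, with margins from 1.35 to 1.68.

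**Figure D2:**
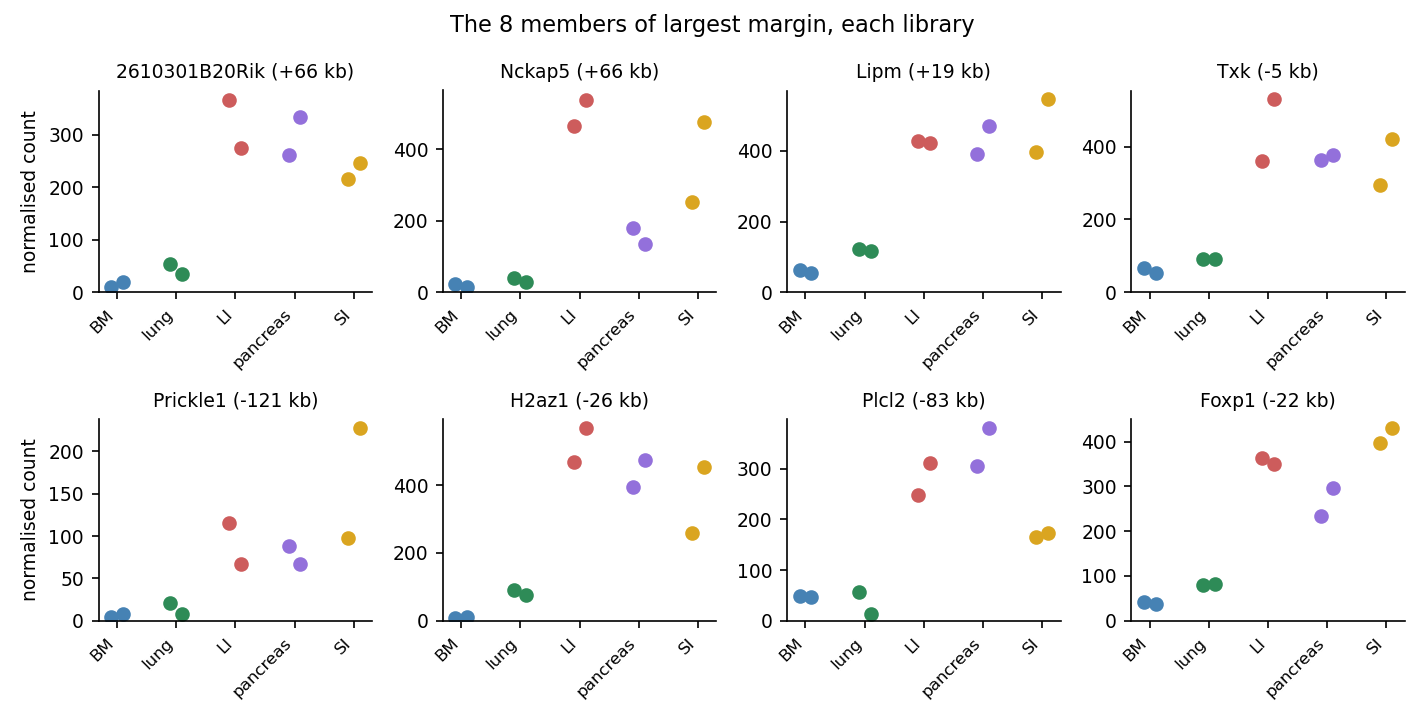
Normalised counts of the 8 members with the largest margins, 1 panel each, with a dot for each library, titled by the nearest gene and the distance from its start site. In each panel the 4 dots of BM and lung lie under the 6 others, as the rule required. In the H2az1 panel lung, at 90.2 and 74.9, lies above BM, at 7.8 and 12.1.

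Most members were far from start sites. Promoter regions, from 1000 bases before to 100 after a start, made up 56 members or 5.07%, against 18.9% of all regions, 595 (53.8%) lay within genes and 454 (41.1%) between them. By annotated feature 582 members, or 52.7%, lay in introns, against 43.0% of all regions, and 13 in coding exons. The median distance to a protein-coding start was 26.6 kb, against 12.7 kb over all regions. The GC content had a median of 46.0% against 49.8%, the mean normalised count a median of 94.4 against 145, and the width a median of 519 against 532 bases.

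The same rule was applied to other sets of tissues to see which of these features were shared. Regions closed in BM alone numbered 4013, those closed in lung alone 1437, those closed in BM and SI 1716, and those with the opposite pattern to the members, open in BM and lung, 251. Promoters were 4.56%, 6.75%, 3.79% and 16.3% of them, so that a low promoter share was common to each of the closed sets. Their median GC content was 46.5%, 47.4%, 46.2% and 49.6%, and their median distance to a start 24.5, 23.9, 30.9 and 16.2 kb. The members' lower GC content and larger distance were thus also shared by the closed sets. These sets share libraries with the members, and 275 members also met the rule for BM alone, since lung stood at least 0.2 above BM in them, and 100 that for lung alone.

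Among chromosomes, members made up between 1.50% of the regions of chromosome 8 and 3.32% of those of chromosome 16 on the autosomes. On chromosome X they were 7 of 1031 regions, or 0.679%, and on chromosome Y none of 53.

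The few members at promoters were led by Slc39a2, a zinc transporter gene. Its region at chr14:51893271-51893771 had normalised counts of 29.1 and 26.0 in BM, 13.3 and 20.2 in lung, 93.2 and 81.5 in LI, 72.5 and 65.1 in pancreas, and 68.1 and 63.8 in SI, a margin of 1.10. The promoter of A4galt, a glycosyltransferase gene with 5 members among its 7 regions, followed at 0.83, with 22.3 to 27.9 in BM and lung and 50.4 to 178 in the other libraries.

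Motif words were then counted in the central 500 bases of each region on both strands. Of 24 words searched, the NBRE, AAAGGTCA, had the largest ratio between members and all regions. It was found in 149 members, or 13.5% (95% Wilson interval 11.6% to 15.6%), against 2.93% of all regions. The AP-1 word TGANTCA was in 489 members, or 44.3% (41.3% to 47.2%), against 23.2%. The nuclear receptor core word AGGTCA, which the NBRE contains, was in 43.4% against 27.7%, and the PAR bZIP word TTANGTAA in 6.70% against 3.85%. The RUNX word TGTGGT was in 52.6% against 39.1% and the GATA word AGATAA in 30.7% against 24.8%. Lower in members than in all regions were the cyclic AMP response element TGACGTCA (0.633% against 1.72%), part of the CTCF motif (AGGNGGCAG, 4.52% against 7.67%) and a KLF word (GGGNGTGG, 15.9% against 21.2%). The intervals cover counting error only, and regions near each other are not independent.

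Between 0.75 and 1.25 of the share in all regions lay 13 of the 24 words, including those of GATA, ETS (GGAAGT), STAT (TTCNNNGAA), NFAT (TGGAAA), SMAD (CAGACA) and the xenobiotic response element TTGCGTG of the aryl hydrocarbon receptor, at 1.99% against 2.01%. The other words searched were kB GGANTTTCC, T-box AGGTGTGA, TCF ATCAAAG, a glucocorticoid receptor word ACANNNTGT, part of the MAF recognition element TGCTGA, an interferon response word GAAANNGAA, the E-boxes CACGTG and CACCTG, EGR GTGGGNG, which can overlap the KLF word, and HIC TGCCAA. Because promoters differ in base composition, the shares were also taken over the 1049 non-promoter members and the 40581 non-promoter regions. There the NBRE was in 13.6% against 3.30%, AP-1 in 44.7% against 26.6%, RUNX in 52.9% against 43.5% and GATA in 31.6% against 28.3%.

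**Figure D3:**
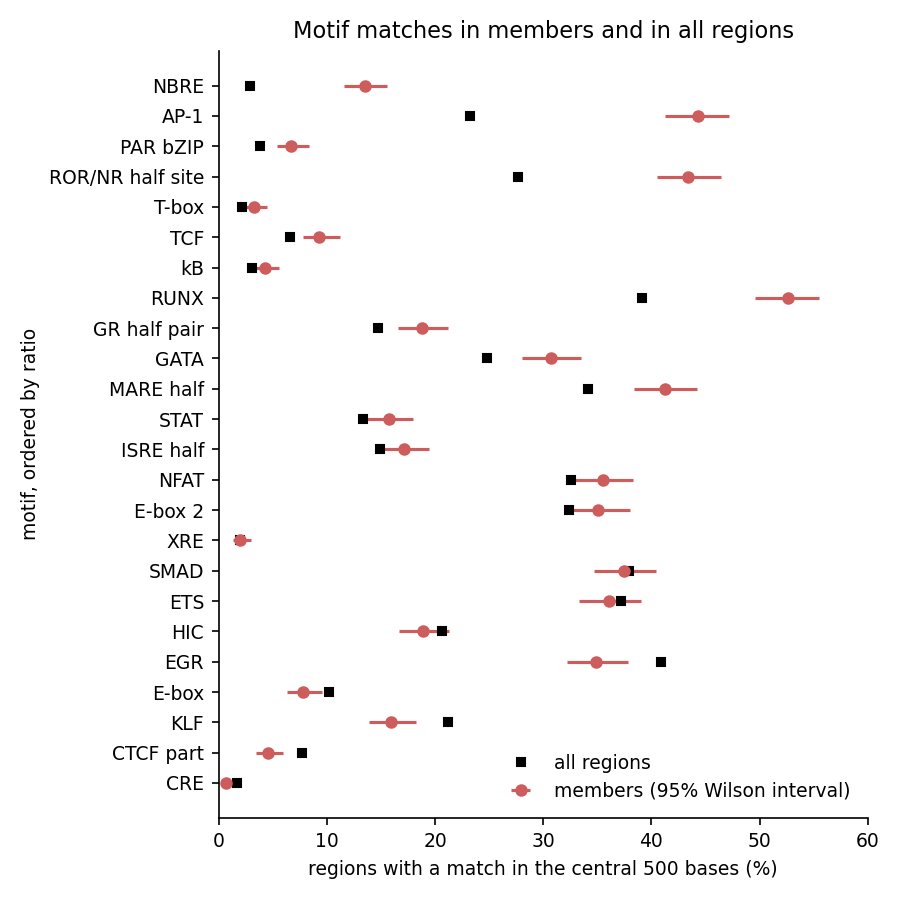
Share of regions with each of 24 motif words in the central 500 bases, for the 1105 members (red, 95% Wilson interval) and for all 50039 regions (black), ordered by the ratio of the shares. The NBRE is at 13.5% against 2.93% and AP-1 at 44.3% against 23.2%, whereas the xenobiotic response element (XRE) is at 1.99% against 2.01%.

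The bases in front of AGGTCA were read one pair at a time. With AA in front (the NBRE) the ratio of the shares was 4.60. The highest ratio of the other 15 pairs was 2.28, for TA (3.08% of members against 1.35%), and CG in front had the lowest, 0.232. AT, TT and GT followed TA, at 2.03, 1.87 and 1.73. The members are less GC-rich than all regions, and the part of base composition in these ratios was not tested.

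The NBRE share was higher at each larger step of the margin, the value by which the members were chosen. The words were picked with earlier results of these data known, so this order is a description and not a test. It was 2.62% of the 47882 regions with a margin under 0, 5.99% of the 1052 regions from 0 to 0.2, 10.9% of the 681 members from 0.2 to 0.5, 16.2% of the 351 from 0.5 to 1, and 24.7% of the 73 above 1. AP-1 did not follow the same course within the members, with 22.4%, 38.3%, 43.5%, 46.2% and 42.5% over the same steps. Nor did RUNX, with 38.5%, 50.9%, 51.2%, 58.4% and 37.0%. Both words were present in 64 members (5.79%), AP-1 alone in 425, the NBRE alone in 85 and neither in 531, and over all regions 0.925% had both.

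AP-1 words lay near the centres, with 38.9% of the 640 matches in members within 50 bases of the centre, against 37.1% of matches in all regions. For the NBRE 29.7% of 155 matches were within 50 bases, against 22.7%. Across the other sets the NBRE was in 7.90% of regions closed in BM alone, 3.62% of those closed in lung alone, 5.42% of those closed in BM and SI and 0.797% of those open in BM and lung. AP-1 was in 44.3%, 30.0%, 56.3% and 11.6% of them, so that the members' AP-1 share equalled that of regions closed in BM alone and was lower than that of regions closed in BM and SI. RUNX was in 50.5%, 49.1%, 46.0% and 45.4% of them and GATA in 26.8%, 35.2%, 34.0% and 35.1%. Each of these sets, the opposite pattern included, thus exceeded all regions in RUNX (39.1%) and GATA (24.8%), as the members did.

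Members were then grouped by the gene with the nearest protein-coding start, which need not be the gene that a region controls. The 1105 members named 847 genes, 677 of them once. At 46 genes there were 3 or more members, 180 in all, and 255 members (23.1%) lay within 20 kb of another.

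Nfkbiz, which encodes IκBζ, a nuclear protein that directs a subset of NF-κB targets, had the most, 11 of its 27 regions. All 11 were intergenic, 17.1 kb to 249 kb from the start, with margins of 0.26 to 1.25. At chr16:55572639-55573167, 249 kb away, counts were 44.6 and 50.2 in BM, 49.4 and 32.8 in lung, 203 and 189 in LI, 157 and 134 in pancreas, and 121 and 139 in SI. At chr16:55786613-55787113, 35.3 kb away, they were 13.6 and 19.5 in BM, 22.0 and 22.4 in lung, 93.2 and 123 in LI, 53.5 and 63.0 in pancreas, and 186 and 182 in SI. The first was highest in LI and the second in SI, so the cluster did not share a single order of tissues. An AP-1 word was in 6 of the 11 and the NBRE in none.

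Zfp36l1, an RNA-binding protein that speeds the decay of mRNAs with AU-rich elements, had 8 of 38 regions, 43.8 kb to 254 kb from its start, and the NBRE was in 3 of them. At the one with the largest margin, chr12:80041570-80042070, counts were 18.4 and 11.2 in BM, 14.9 and 7.7 in lung, 40.7 and 35.2 in LI, 40.4 and 39.9 in pancreas, and 72.0 and 88.9 in SI. The next, at chr12:79959827-79960476, had 466 in SI replicate 1 and 146 in SI replicate 2. LI had 136 and 137 there, so the size of the SI excess over LI rested on SI replicate 1.

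Nckap5 had 7 of 16 regions, 6 of them inside the gene, and the differences of tissue means had a median of 2.94 on the log2 scale, higher than for the other genes with at least 7 members (1.48 for Nfkbiz, 1.78 for Zfp36l1 and 1.52 for Myc). At chr1:126822319-126822894, near its start, counts were 276 and 433 in BM, 152 and 103 in lung, 1002 and 1177 in LI, 880 and 907 in pancreas, and 701 and 1040 in SI. It was high in every open tissue and lower in lung than in BM. Counts at chr1:126756143-126756643 were at most 9.3 in BM and lung, but also only 20.2 to 40.0 in pancreas and SI, with 110 and 46.3 in LI.

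**Figure D4:**
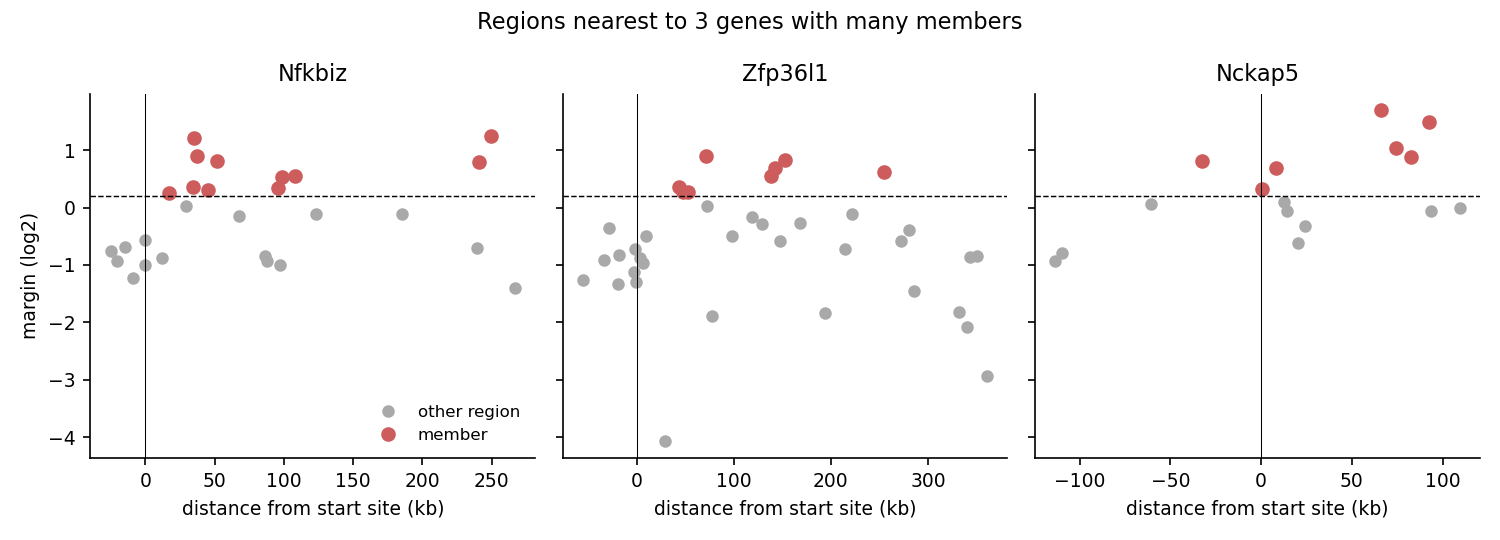
Margin (log2) of every region nearest to Nfkbiz (27 regions), Zfp36l1 (38) and Nckap5 (16) against its distance from the start site in kb, with members in red and the rule's limit of 0.2 dashed. The 11 Nfkbiz and 8 Zfp36l1 members all lie on the downstream side, and 6 of the 7 Nckap5 members lie on the same side of the start as the gene body.

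Myc, the growth regulator, had 7 of 43 regions, 35.7 kb to 741 kb from its start, 6 of them with an AP-1 word. Il6, A4galt, Atp10a, Gm17359, Ppfibp2, Samsn1 and Tlk1 had 5 members each. Atp10a and Samsn1 had 30 regions each, but 5 of 7 regions were members at A4galt and at Gm17359, 5 of 12 at Ppfibp2 and 5 of 13 at Il6.

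Gene lists chosen for ILC2 biology were counted against the 2.21% of all regions. Of the type 2 cytokines and effectors, 7 of 150 regions (4.67%) were members, and these were 5 near Il6 and 1 each near Csf2 and Lif, none near the defining type 2 cytokines Il4, Il5 or Il13. The median margin of the list was -0.97, against -0.88 over all regions. At the Csf2 member, chr11:54201376-54202276, 48.1 kb from the gene for GM-CSF, counts were 84.4 and 87.4 in BM, 187 and 198 in lung, 431 and 455 in LI, 385 and 416 in pancreas, and 419 and 484 in SI. The 3 open tissues were close together and lung lay between them and BM. At chr5:29920073-29920774 near Il6 they were 57.3 and 68.8 in BM, 58.0 and 54.1 in lung, 239 and 221 in LI, 124 and 187 in pancreas, and 185 and 290 in SI.

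Early response genes had 16 members of 246 regions (6.50%) and NF-κB and TNF family genes 14 of 218 (6.42%), with median margins of -0.94 and -0.84. Zfp36l1 and Nfkbiz gave 8 and 11 of these. The rest of the early genes were Dusp5 with 4, a phosphatase gene induced by ERK signalling, and Egr2, Atf3, Dusp1 and Jun with 1 each. The Egr2 member, at chr10:67458745-67459283, had 56.3 and 39.1 in BM, 87.8 and 70.5 in lung, 268 and 201 in LI, 177 and 225 in pancreas, and 218 and 294 in SI. Nfkbia, Rel and Nfkb1 had 1 each, and none of the list's TNF family genes had a member. The list did not hold every such gene, and Tnfrsf21, outside it, had 3 members among its 4 regions.

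ILC2 transcription factor genes had 17 members of 780 regions (2.18%), the share of all regions, with a median margin of -0.94. They were spread over 12 genes, with 3 at Ets1, 2 each at Maf, Rora and Runx1, and 1 each at Tox, Id2, Arntl, Tcf7, Gata3, Ikzf1, Irf4 and Batf. The Tox member lay 181 kb upstream of the start of this regulator of ILC development and held an NBRE. It had 81.5 and 66.0 in BM, 132 and 134 in lung, 471 and 620 in LI, 256 and 332 in pancreas, and 241 and 461 in SI. The member near Ets1, at chr9:32759664-32760164, also held an NBRE and had 163 and 133 in LI, 45.2 and 126 in pancreas, 43.2 and 52.9 in SI and 16.5 to 24.6 in BM and lung.

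Cytokine receptors had 4 members of 174 regions (2.30%), 1 each near Il9r, Tgfbr2, Tgfbr1 and Il17rb, the last encoding a subunit of the IL-25 receptor, and a median margin of -1.03. Near Il9r counts were 16.5 and 16.7 in BM, 26.7 and 36.1 in lung, 124 and 84.1 in LI, 61.8 and 94.5 in pancreas, and 176 and 149 in SI. Homing, adhesion and residency genes had 6 of 251 (2.39%, median margin -0.998), 3 of them near Ccr4, and 1 each near Gpr183, an oxysterol receptor, Itgav, an integrin chain, and Rgs2. Checkpoint and costimulation genes had 4 of 137 (2.92%, median -0.78).

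Within Tigit, an inhibitory receptor gene, chr16:43661449-43661980 had 25.2 and 36.3 in BM, 122 and 72.1 in lung, 353 and 259 in LI, 342 and 466 in pancreas, and 303 and 283 in SI, a margin of 1.08. The member near Ctla4, another inhibitory receptor gene, had 122 and 100 in LI and 20.2 to 67.2 in pancreas and SI, against 7.8 to 14.1 in BM and lung. At this site LI was above pancreas and SI in both replicates, which was not so within Tigit.

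Signal regulators had 8 of 213 (3.76%, median -0.76), with 2 each near Socs2, Nedd4l and Pde3b and 1 each near Socs1 and Pde4b. Receptors for neuropeptides, lipids and hormones had 3 of 224 (1.34%, median -1.16), 2 in Nr3c1, the glucocorticoid receptor gene, and 1 near Ramp3. A list of SMADs and other TGF-β pathway genes, which left out the receptor genes Tgfbr1 and Tgfbr2 counted with the cytokine receptors, had none of 154, with a median of -1.04.

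The rule did not order the tissues within the open and the closed set, and these were compared with edgeR's quasi-likelihood test over 49981 regions, with Benjamini-Hochberg adjustment and calls at an adjusted p under 0.05. The mean of LI was the highest of the 3 open tissues in 453 members, that of SI in 469 and that of pancreas in 183, and pancreas was the lowest in 608. The 3 comparisons among them share libraries, so they are not independent of each other. The rule set a floor for each of the 6 open libraries and no ceiling.

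Between LI and SI, 76 members (6.88%) were called, against a background of 8.44% of all regions. LI was higher in 49 (4.43%, background 6.90%) and SI in 27 (2.44%, background 1.53%). The median log2 fold change over members was 0.02, against -0.02 over all regions. With total counts alone as the scaling the split was 30 higher in LI and 81 in SI, against 2301 and 3125 of all regions. The number of calls fell without either LI library and rose without SI replicate 2, in the members and over all regions. The median over members was 0.01 without LI replicate 1, 0.04 without LI replicate 2 and 0.12 without SI replicate 2. Over all regions it was -0.03, -0.01 and 0.03.

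The largest LI excess over SI was within Scn8a, a voltage-gated sodium channel gene. Counts were 532 and 251 in LI and 38.4 and 57.0 in SI, with 89.1 and 52.5 in pancreas, a log2 fold change of 3.02 (SE 0.42, adjusted p = 0.000397). Within Nampt, which encodes an enzyme of NAD salvage, they were 264 and 187 in LI, 12.5 and 55.6 in SI and 27.3 and 31.5 in pancreas (LI against SI 2.68, SE 0.52, adjusted p = 0.00413). Members near Plppr4, Ppp2r1b and Efcab9 followed, with log2 fold changes of 2.62, 2.25 and 2.02. These were regions mostly open in LI that were still above BM and lung in pancreas and SI.

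SI was above LI within Abcc4, a transporter gene, with 253 and 173 against 44.1 and 30.9 (log2 fold change of LI against SI -2.52, SE 0.45, adjusted p = 0.00242). At a pair of neighbouring members near Wsb1 the log2 fold changes were -2.34 and -2.13. Within Itpr3, which encodes an inositol trisphosphate receptor, counts were 399 and 550 in SI, 119 and 104 in LI and 72.5 and 54.6 in pancreas (-2.10, SE 0.34, adjusted p = 0.00114). A member near Tcf7l2 was called at -2.47 (adjusted p = 0.0297), but its SI counts were 416 and 48.2 and its LI counts 45.8 and 36.9, so the difference rested on SI replicate 1.

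Between LI and pancreas, 54 members (4.89%) were called, against 3.27% of all regions, and 52 of them were higher in LI (4.71%, background 2.01%) and 2 in pancreas (0.181%, background 1.25%). The median over members was 0.30, against 0.01, and 74.1% of members had the higher fitted level in LI, against 51.1% of all regions. With any 1 of the 4 libraries left out, fewer regions were called, in the members and over all regions, and fewest without pancreas replicate 1. The number of calls thus depended on each of the 4 libraries. The median over members then ran from 0.19 to 0.44, against -0.003 to 0.02 over all regions. DESeq2 called 91.

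Near Stmnd1, counts were 329 and 574 in LI, 768 and 1299 in SI and 47.5 and 69.3 in pancreas, against 13.1 to 36.8 in BM and lung (LI against pancreas 3.01, SE 0.42, adjusted p = 0.00139). This was an intestinal region that met the rule because pancreas was still above BM and lung. At an intergenic member 643 kb upstream of Agtr1b, an angiotensin receptor gene, LI had 254 and 263 and pancreas 46.4 and 50.4 (2.44, SE 0.37, adjusted p = 0.00202). The members at Nampt, Scn8a and Plppr4 were also called. The 2 members higher in pancreas were near Socs2, a suppressor of cytokine signalling, with 628 and 615 in pancreas and 225 and 313 in LI (-1.18, SE 0.29, adjusted p = 0.0328), and near Arntl, a circadian clock gene, with 233 and 225 against 103 and 94.4 (-1.20, SE 0.32, adjusted p = 0.0475). Both calls were lost when any 1 of the 4 libraries was left out, with adjusted p from 0.111 to 0.209 for Socs2 and from 0.137 to 0.267 for Arntl.

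Between pancreas and SI, 199 members (18.0%) were called, against 20.5% of all regions. SI was higher in 167 (15.1%, background 8.45%) and pancreas in 32 (2.90%, background 12.0%). The median was -0.25, against -0.06. With total counts alone as the scaling, 289 members were called higher in SI and 17 in pancreas, against 8489 and 4339 of all regions. Without either pancreas library fewer regions were called, in the members and over all regions. The median over members was -0.16 without pancreas replicate 1 and -0.40 without pancreas replicate 2, against -0.05 and -0.07 over all regions.

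At the Stmnd1 member the log2 fold change of pancreas against SI was -4.19 (SE 0.43, adjusted p = 7.24e-06), and at the Itpr3 one -2.90 (SE 0.36, adjusted p = 3.89e-05). Within Pole2 and Fbxw7 it was -3.23 and -2.62, but SI replicate 1 had 387 and 213 there and SI replicate 2 only 62.4 and 69.2. Pancreas was higher within Prkcb, a protein kinase C gene, with 358 and 578 against 120 and 172 in SI, and 459 and 390 in LI (1.66, SE 0.31, adjusted p = 0.00133). It was also higher 203 kb upstream of Satb1, a chromatin organiser, with 422 and 592 against 170 and 170 (1.56, SE 0.25, adjusted p = 0.000381). Further members higher in pancreas were near Tram1, within Cnst and near Il6. At Prkcb and Satb1 LI was high with pancreas, and SI was the lowest open tissue.

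Within the closed tissues, 128 members (11.6%) were called between BM and lung, against 19.0% of all regions. The rule's ceiling limits how far BM and lung can lie apart in members, and its part in the lower share was not tested. Lung was higher in 113 (10.2%, background 11.5%) and BM in 15 (1.36%, background 7.56%). The median log2 fold change of BM against lung was -0.15, against 0.05 over all regions, and the lung mean was above that of BM in 696 members (63.0%). In 275 members both lung libraries were at least 0.2 above both BM libraries, in 100 the reverse held, and 730 met neither. With any 1 of the 4 libraries left out, fewer regions were called, in the members and over all regions. The median over members then ran from -0.23 to -0.12, against 0.01 to 0.04 over all regions. With total counts alone, 7 members were called higher in BM and 169 higher in lung, against 2606 and 8090 of all regions.

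The members higher in lung were led by the one near H2az1 (log2 fold change of BM against lung -3.04, SE 0.38, adjusted p = 5.1e-05), whose counts are given before. Within Prkca, which encodes protein kinase C α, BM had 28.1 and 35.3, lung 220 and 260 and the open tissues 312 to 506 (-2.92, SE 0.30, adjusted p = 9.88e-06). Within Pvt1, 260 kb from Myc, BM had 40.8 and 35.3, lung 258 and 252 and the open tissues 321 to 572 (-2.75, SE 0.24, adjusted p = 3.04e-06). Within Pik3r5, which encodes a regulatory subunit of PI3Kγ, BM had 3.9 and 16.7 and lung 59.6 and 76.5, and SI at 95 and 119 was the lowest of the open tissues (-2.71, SE 0.45, adjusted p = 0.000492). At Prkca, Pvt1 and Pik3r5 lung was closer on the log2 scale to the open tissues than to BM, and their margins were 0.26, 0.31 and 0.31.

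BM was higher near Ndufs4, which encodes a subunit of respiratory complex I, with 27.2 and 29.8 against 6.3 and 7.7 in lung (1.99, SE 0.49, adjusted p = 0.00793). The others of this direction that led were within Mfap3, near Cdk5r1 in an intron of Myo1d, in Nckap5 at chr1:126822319-126822894, and near Map4k3, with log2 fold changes from 1.34 to 1.54.

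**Figure D5:**
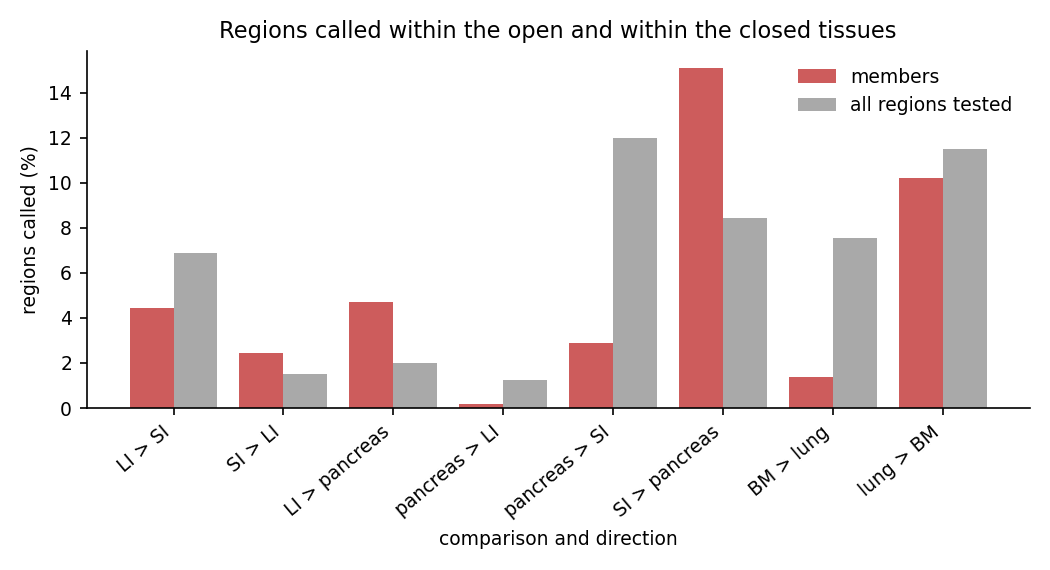
Percent of regions called by edgeR's quasi-likelihood test (adjusted p under 0.05) in each direction of 4 comparisons, for the members (red) and for all 49981 regions tested (grey). Members called higher in SI than in pancreas are at 15.1% against 8.45%, and those higher in BM than in lung at 1.36% against 7.56%.

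The motif words were also set against these comparisons. Of the 149 members with an NBRE, 30 were called higher in lung than in BM and 1 higher in BM, a share of 20.8% called, against 10.1% of the 956 without it. Over all 1466 regions with an NBRE the share was 28.9%, so the members did not exceed other regions with the word. Of the 489 members with AP-1, 31 were called higher in LI than SI and 8 higher in SI, and of the 616 without it 18 and 19. The calls with AP-1 were 6.34% higher in LI and 1.64% in SI, against 15.5% and 0.946% of all 11623 regions with AP-1. With total counts alone as the scaling, the LI and SI split of all members turned, as given above, and the split of those with AP-1 was not tested under it. The median log2 fold change of LI against SI was 0.16 with AP-1 and -0.08 without it, and over all regions with AP-1 it was 0.25.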

How the data were processed

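ATAC-seq libraries of ILC2s from BM, lung, LI, pancreas and SI, 2 per tissue, were analysed from the deposited table of raw counts over 50039 merged peaks. Per the labels and the study's methods, the authors checked reads with FastQC 0.11.9, aligned them to mm10 with Bowtie2 2.2.9 keeping unique reads, converted them with SAMtools 1.8, called peaks with MACS2 2.1.1, merged them and counted reads per peak. Removal of duplicate reads and a transposase shift are not given in the sources used here. Peaks called per tissue and merged can miss weak regions.

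Counts were divided by median-of-ratios size factors, with a pseudocount of 1. Regions were annotated with curated RefSeq transcripts (promoter: 1000 bases before to 100 after a start), and sequences were read from the RefSeq GRCm38 (mm10) genome. Starts and ends are printed as the table gives them, and whether its start counts from 0 or 1 is not stated. Motifs were searched in 500 bases around the centre. The 4 comparisons used edgeR 4.0.16 on the counts of all 10 libraries with a term for each tissue and TMM scaling, in R 4.3.3, over the 49981 regions with at least 1 count. DESeq2 1.42.0, other scalings, filters and left-out libraries were tried as alternatives. Total reads per library set the precision, and intervals cover counting error only. With 2 libraries a tissue no permutation test could pass, so tests borrow the spread across regions.

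The members, gene lists, markers and motifs were chosen with earlier results of these data known. Genes named are the nearest to the 20 members of largest margin, those with most members, the 3 leading members of each list, the 5 largest called changes per direction of each comparison, the regions beside the limit, and the regions whose sequence is shown, for which chromosome 18 was left out. Same-numbered libraries were not treated as paired. The correlation of their deviations ran from -0.22 to 0.20 over pairs of tissues, which cannot show whether tissues shared mice.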

Additional observations from a re-analysis of the deposited data

How the results depend on the processing

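With 2 libraries a tissue, depth limits members with few reads in BM. The number of members stayed between 827 and 1140 under other scalings, a pseudocount of 5, GC or mean trends removed and thinned counts, of which 827 came with total counts (763 of them shared) and 846 with the GC trend removed (772 shared). The size factors from non-promoter regions, the mean trend and the thinning were added after seeing the data. It was 2099 at a margin above 0 and 424 at 0.5, 3262 and 4239 with only the replicate 1 or replicate 2 libraries, and 1191 to 1949 with 1 library left out, highest without pancreas replicate 1. The held-out share of 45.9% was 35.3% with the replicates exchanged. The promoter share was 7.87% with 1000 bases on both sides and 2.59% for members at a margin of 0.5.

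Of the 1105 members, calls at an unadjusted p under 0.05 were 260 for LI against SI and 281 for LI against pancreas. They were 343 for pancreas against SI and 220 for BM against lung. Over all 49981 regions tested they were 12251, 7601, 17038 and 15861 in the same order. At an adjusted p under 0.05, the 4 libraries alone gave 31 members for LI against SI, against 1589 of all regions. For LI against pancreas they gave 106, against 2411. DESeq2 gave 91 for LI against pancreas, against 2488 of all regions, and total counts gave 306 for pancreas against SI, against 12828. For LI against SI the scaling by total counts turned the split of members from 49 and 27 to 30 and 81. Over all regions that split went from 3449 and 767 to 2301 and 3125. For BM against lung, total counts called 2606 of all regions higher in BM and 8090 higher in lung, from 3780 and 5733. This scaling moved the median log2 fold change of all regions to -0.26 for LI against SI, -0.30 for pancreas against SI and -0.17 for BM against lung, from -0.02, -0.06 and 0.05. Leaving out 1 library gave 24 to 115, 0 to 25, 60 to 194 and 60 to 82 calls in the 4 comparisons. The replicate block, with numbers that are not known to pair the libraries, gave 80, 61, 193 and 127 calls against 76, 54, 199 and 128. Over all regions the block gave 4333, 1797, 10557 and 9563. The cause of these changes was not tested.

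Of 364 margins, of 52 named members under 7 alternatives each, 26 (of 11 members: Ccr4, Ctla4, Itgav, 1 in Nedd4l, both in Nr3c1, Ramp3, Socs2, Tgfbr1, Tgfbr2 and the weaker of Tigit) fell under the limit of 0.2, 8 of them with thinned counts, and 6 turned negative: with thinned counts Ccr4 at -0.16, Nr3c1 at -0.077 and Ramp3 at -0.15, with the mean trend removed Nr3c1 at -0.34 and Nedd4l at -0.46, and with the GC trend removed the other Nr3c1 member at -0.18. Of 370 refits of the named fold changes, 308 kept their call, 62 lost it and none changed sign.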
